A study of Mus musculus with 12 samples.

Results

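Chemokines are small secreted proteins that draw leukocytes along a gradient, and most of them belong to the CC or the CXC family by the spacing of their first cysteines. They signal through receptors that couple to inhibitory G proteins on leukocytes and endothelial cells, while atypical receptors bind chemokines without that coupling and remove or store them. In adipose tissue the ligands are made by macrophages, endothelial cells, stromal cells and fat cells, and the receptors are carried largely by blood-derived cells. The set described here holds 37 genes of the 32774 in the deposited table, chosen by symbol from a list of chemokine ligands and receptors: 25 ligands, 10 signalling receptors and 2 atypical receptors.

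Poly-A sequencing measured their RNA in vascular anomalies of adipose tissue and in normal fat. The anomalies came from C57BL/6 mice with VEC-Cre, a Cre recombinase under the endothelial VE-cadherin promoter, together with SB Transposase, the Sleeping Beauty enzyme that moves transposons, and onc3, the transposon it moves. The normal adipose tissue came from C57BL/6 mice with SB Transposase and onc3 and without Cre, so both groups carried the transposase and the transposon. The 8 anomaly libraries came from 7 animals, with a leg and an arm piece of animal M566 averaged, and the 4 normal adipose libraries from 4 animals. Of the anomaly animals, 5 have subQ in their title and 2 (18f and M278) have fat, as do the 4 controls (F539, M5, M602 and M2).

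All values are the authors' log2 CPM, normalised counts scaled to sequencing depth, on the log2 scale, where -6.97 stands for 0 reads. The library of M580 held 953994 recovered reads, against 11749969 to 29763059 in the other anomaly libraries and 10337258 to 33980694 in the controls. A single read was worth 0.742 CPM in M580, so low values there are coarse. Adipocyte genes were present in both groups, and the summed level of 8 adipocyte markers ran from 991 to 20760 CPM in the anomalies and from 26973 to 69880 CPM in normal adipose tissue. All 8 fell in the anomalies, with a median log2 fold change of -5.18. The 4 general leukocyte markers all rose, and their sum ran from 330 to 1355 CPM in the anomalies and from 144 to 293 CPM in the controls. Of 8 endothelial markers 4 rose, with sums of 1163 to 4651 CPM in the anomalies and 1020 to 1997 CPM in the controls. The library of M580 stood apart in neutrophil genes, and that of the leg piece of M566 in S100a8 and S100a9 among them. Their values stand beside the neutrophil ligands. Control F539 stood apart in that it held the epithelial chemokine Cxcl15 at 5.42 log2 CPM (at most -4.39 in the other controls) and the lymph node chemokine Ccl21a at 4.08 (at most 0.61). The pieces were whole tissue, in which fewer cells of a type and less RNA per cell cannot be told apart.

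Of the 37 genes, 31 passed a minimum mean of 1 log2 CPM and were tested with limma. At a Benjamini-Hochberg adjusted p under 0.05, 14 of the 31 were higher in the anomalies (45.2%) and 0 were lower. At an unadjusted p under 0.05, 2 genes were lower (Ccl11 and Ccl24, against 28.6% of all genes tested), and with limma-voom 11 were higher and 0 lower. Over all 12955 genes tested, 15.3% were higher and 23.2% lower. With limma-voom 15.9% of all genes tested were higher and 22.8% lower, and without the minimum 6.59% were higher and 8.43% lower. The median log2 fold change was 1.43 over the 31 genes and -0.10 over all genes tested. In 11 of the 37 genes every anomaly animal lay above every control, 10 of them among the 31 tested, where all genes tested gave 8.3%. In 0 genes did every anomaly animal lie below every control, where all genes gave 12.4%. The minimum favours genes that are high in the anomalies, which make up 7 of the 11 animals. Among the 24 genes with a control mean of at least 1 log2 CPM 8 were called (33.3%), against 13.5% of all 12384 such genes. Among the 7 with a lower control mean 6 were called. Genes of this second kind pass the minimum only through their anomaly values. Their share over all genes was not counted, so the 6 of 7 cannot be read against it.

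**Figure D1:**
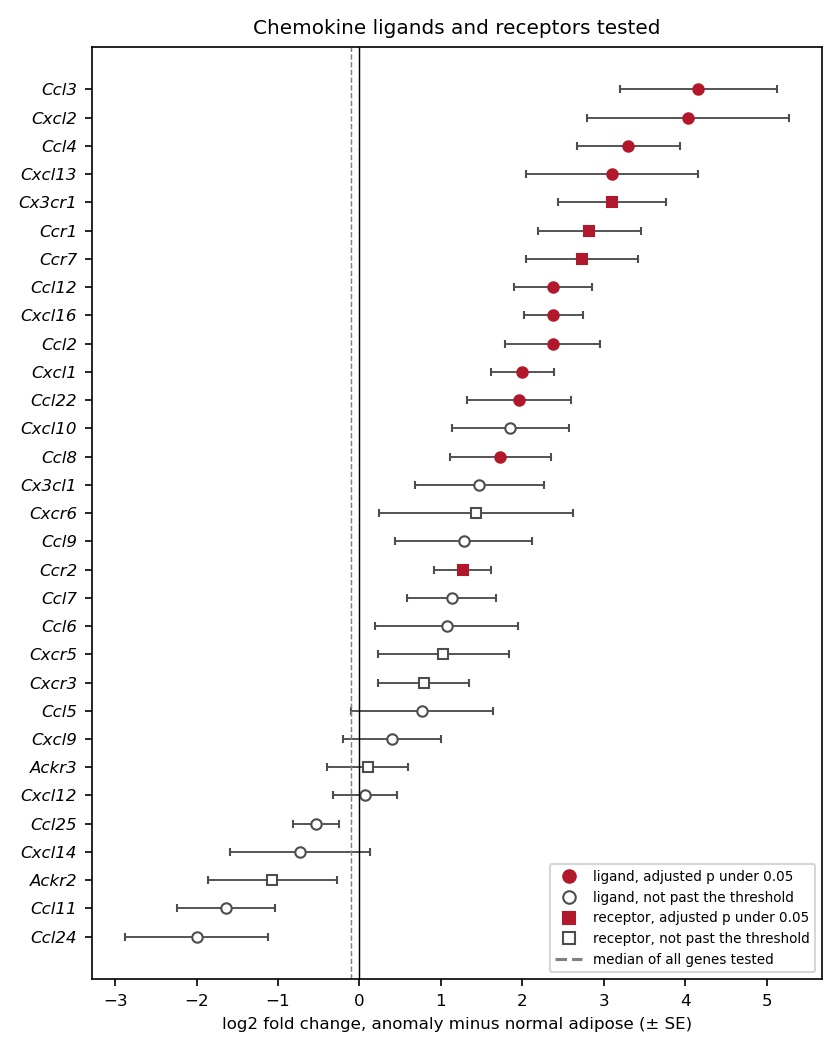
The log2 fold change, anomaly minus normal adipose, of the 31 genes tested is drawn with its SE, ligands as circles and receptors as squares, with filled marks for an adjusted p under 0.05. The 14 filled marks all lie right of 0, and the dashed line is the median of all genes tested, -0.10.

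The promoters of neighbouring CXC ligand genes on chromosome 5 are shown because these genes differed in the result of the test: Cxcl1 and Cxcl2 passed it, and Cxcl9 and Cxcl10 did not. Each sequence is the 250 bases before the RefSeq transcription start on build GRCm38.p6, 5′ to 3′ on the strand of the gene. Capitals mark 2 forms of the site bound by the inflammatory transcription factor NF-κB: GGGA, any 1 base and TTTCC in Cxcl1 and Cxcl2, and GGGA, any 1 base and TTCC in Cxcl9 and Cxcl10. In Cxcl10 they also mark GAAA, any 2 bases and GAAA, a form of the interferon-stimulated element. The windows are chr5:90890995-90891244 (plus strand) for Cxcl1, chr5:90903649-90903898 (plus strand) for Cxcl2, chr5:92328080-92328329 (minus strand) for Cxcl9 and chr5:92348890-92349139 (minus strand) for Cxcl10.
Cxcl1: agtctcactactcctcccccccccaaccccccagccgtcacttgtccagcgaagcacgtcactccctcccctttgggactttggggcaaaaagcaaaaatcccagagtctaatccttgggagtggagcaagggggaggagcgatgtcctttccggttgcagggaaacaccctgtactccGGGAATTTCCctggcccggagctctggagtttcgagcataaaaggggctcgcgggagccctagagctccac
Cxcl2: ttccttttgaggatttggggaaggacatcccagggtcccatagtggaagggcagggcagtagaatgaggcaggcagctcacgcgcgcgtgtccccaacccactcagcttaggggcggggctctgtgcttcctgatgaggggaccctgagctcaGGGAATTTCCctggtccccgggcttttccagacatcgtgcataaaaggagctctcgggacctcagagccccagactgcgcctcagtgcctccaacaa
Cxcl9: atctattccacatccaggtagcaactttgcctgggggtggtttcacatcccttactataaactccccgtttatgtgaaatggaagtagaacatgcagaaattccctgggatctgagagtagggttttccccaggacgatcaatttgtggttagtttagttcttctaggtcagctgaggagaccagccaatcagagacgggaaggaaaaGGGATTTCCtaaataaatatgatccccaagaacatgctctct
Cxcl10: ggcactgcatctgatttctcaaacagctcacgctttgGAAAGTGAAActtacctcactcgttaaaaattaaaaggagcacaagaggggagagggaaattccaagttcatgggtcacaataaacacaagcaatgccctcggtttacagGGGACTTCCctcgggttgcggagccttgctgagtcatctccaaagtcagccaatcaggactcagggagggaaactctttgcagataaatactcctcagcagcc
The NF-κB match began 71 bases before the start in Cxcl1, 97 in Cxcl2, 42 in Cxcl9 and 103 in Cxcl10, where the interferon-type match began 213 bases before the start. Both strands were searched, and the longer NF-κB pattern differs from the shorter one by 1 more T.

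Of the 37 genes, 27 had a promoter in the RefSeq table. The longer NF-κB pattern stood in the promoters of Ccr3, Cxcl1 and Cxcl2 and in 0.356% of all 32851 windows of the same length. The shorter one stood in Ccr6, Cxcl9 and Cxcl10 and in 1.43% of all promoters. Either form was present in 6 of 27 genes and in 1.78% of all promoters. Of the 14 genes that rose, 10 had a promoter in the table, and 2 of these held either form. The interferon-type pattern stood in Ccl19, Cxcl10 and Cxcl14 and in 2.98% of all promoters. TTC, any 3 bases and GAA, a form of the STAT site, stood in Ccl17, Ccr6 and Cxcl14 and in 7.02% of all promoters. A match is a description of the letters and was not set against binding.

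Of the ligands of Ccr2, the receptor that brings monocytes out of the blood, Ccl2 and Ccl12 rose and Ccl7 did not pass. Ccl2, the main monocyte attractant, lay at 4.09, 5.06 and 6.95 log2 CPM (lowest, median and highest of 7 anomaly animals), against 2.13, 3.54, 3.08 and 2.38 in controls F539, M5, M602 and M2. The groups did not overlap, and animals 18f and M610 were the highest. Ccl2 rose by 2.37 ± 0.58 (log2 fold change ± SE, 5.17-fold, limma adjusted p = 0.00902). Ccl12, a mouse ligand of Ccr2, lay at 1.09, 2.39 and 3.81 log2 CPM in the anomalies, against 0.42, -0.79, 0.27 and 0.42 in the controls. It rose by 2.38 ± 0.48 (5.21-fold, adjusted p = 0.00394), with no overlap. Ccl7, which attracts monocytes through Ccr1 and Ccr2, lay at 2.42, 3.51 and 5.68 log2 CPM in the anomalies, against 1.60, 3.13, 3.20 and 2.61 in the controls. Its difference of 1.13 ± 0.55 did not pass (adjusted p = 0.127), and its groups overlapped.

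Ccr2 itself lay at 5.28, 6.10 and 6.94 log2 CPM in the anomalies, against 5.27, 4.87, 4.21 and 5.0 in the controls. It rose by 1.27 ± 0.35 (2.41-fold, adjusted p = 0.0158). The groups were separated by a narrow gap between M566 and F539, and the arm piece of M566, at 4.86, lay inside the control range. Without control M602 Ccr2 did not pass (log2 fold change 1.06, adjusted p = 0.0638). The 4 monocyte markers summed to 35.5 to 393 CPM in the anomalies and to 4.74 to 22.8 CPM in the controls, and the 8 macrophage markers to 481 to 3364 CPM in the anomalies and to 449 to 945 CPM in the controls. Of the 4 monocyte markers 2 rose (Plac8 and Ms4a4c), and of the 8 macrophage markers 3 (C1qa, C1qb and Fcgr1). Their part in the changes of chemokine genes was not tested.

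Ccl3 and Ccl4, the macrophage inflammatory proteins, were scarce in normal adipose tissue. Ccl3 lay at 0.54, 1.93 and 5.13 log2 CPM in the anomalies, against -3.37, -0.38, -2.27 and -0.18 in the controls, with M580 and 18f highest. It rose by 4.16 ± 0.96 (17.9-fold, adjusted p = 0.00713), and the groups did not overlap. The lowest value, of F539, was 1 read, and without F539 the log2 fold change was 3.55. Without M580, 18f or M278 the gene was under the minimum and not tested. Ccl4 lay at 1.04, 2.85 and 4.38 log2 CPM in the anomalies, against -0.67, -0.70, -1.62 and 0.76 in the controls. It rose by 3.30 ± 0.63 (9.87-fold, adjusted p = 0.00305). The groups did not overlap over animals, while the arm piece of M566 at 0.63 was below control M2.

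Ccr1, a receptor of Ccl3 on monocytes, macrophages and neutrophils, lay at 2.89, 5.49 and 6.13 log2 CPM in the anomalies, against 1.51, 2.64, 1.67 and 2.01 in the controls. It rose by 2.82 ± 0.63 (7.08-fold, adjusted p = 0.00619), with no overlap over animals. The highest values were again those of 18f and M580, and M566 was lowest, with 3.84 in its leg and 1.93 in its arm piece.

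Ccl6 and Ccl9, CC ligands of Ccr1 found in rodents, varied widely among the anomalies. Ccl6 lay at 5.13, 7.78 and 10.65 log2 CPM in the anomalies, against 5.58, 7.07, 6.54 and 6.75 in the controls. Ccl9 lay at 4.14, 6.83 and 9.62 log2 CPM in the anomalies, against 4.69, 6.05, 5.30 and 5.85 in the controls. In both genes 18f was highest and M566 lowest, and M566 lay below every control. Neither passed, with log2 fold changes of 1.07 ± 0.88 (adjusted p = 0.355) for Ccl6 and 1.28 ± 0.84 (adjusted p = 0.248) for Ccl9. With the 2 fat-titled anomalies alone against the controls both passed, at 2.97 (adjusted p = 0.0486) and 3.31 (adjusted p = 0.0224).

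Ccl8, a monocyte and T cell attractant, lay at 4.72, 5.69 and 8.32 log2 CPM in the anomalies, against 4.37, 4.24, 4.27 and 4.70 in the controls. F578 and M605 were highest, and the lowest anomaly, M278, lay just above control M2. Ccl8 rose by 1.73 ± 0.62 (3.32-fold, adjusted p = 0.0455). The call was lost with limma-voom (adjusted p = 0.0583) and when any of 8 animals was left out, each of the 4 controls among them (adjusted p from 0.0512 to 0.109). Ccl5, which attracts T cells and monocytes, lay at 0.51, 3.98 and 6.01 log2 CPM in the anomalies, against 3.14, 2.81, 1.89 and 4.22 in the controls, and did not pass (0.77 ± 0.87, adjusted p = 0.507). Its lowest anomaly was 18f and its highest M278, both fat-titled.

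Ccl22, which draws Ccr4-bearing T cells and is made by dendritic cells and macrophages, lay at -0.15, 2.38 and 2.98 log2 CPM in the anomalies, against -0.48, 0.10, -1.04 and 0.79 in the controls. It rose by 1.96 ± 0.64 (3.9-fold, adjusted p = 0.0330), with 5 of 7 anomaly animals above the highest control. The call was lost with limma-voom (adjusted p = 0.0679) and without F539, M5 or M602 (adjusted p = 0.0669, 0.0602 and 0.111). The gene was under the minimum and not tested without M580, M566, M278 or M605. Ccl17, the other Ccr4 ligand, was under the minimum, at -3.77, -1.31 and 0.58 log2 CPM in the anomalies, against -2.43, -2.09, -2.27 and -1.90 in the controls.

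The eotaxins, which call eosinophils through the receptor Ccr3, had negative differences. Ccl11, eotaxin, lay at 2.96, 4.43 and 6.13 log2 CPM in the anomalies, against 4.97, 6.90, 6.12 and 6.27 in the controls, and 4 of 7 anomaly animals lay below the lowest control. Its log2 fold change was -1.64 ± 0.60, with an adjusted p of 0.0510, and it passed in 9 of 28 alternatives. It was the most abundant of the 37 genes per kilobase of exon in the controls, with a median of 67.7 CPM per kb, and ranked 10 in the anomalies, with 19.9 CPM per kb. Ccl24, a second eotaxin, lay at -2.15, 1.84 and 2.46 log2 CPM in the anomalies, against 1.90, 4.07, 2.62 and 2.76 in the controls (-2.0 ± 0.88, adjusted p = 0.0950).

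Ccr3 was under the minimum. It lay at -0.93, -0.26 and 4.79 log2 CPM in the anomalies, against -3.37, -1.52, -2.97 and -2.56 in the controls, without overlap. In M580 its value of -0.41 was 1 read, and 1 read in that library already lies above every control. The highest value, of M278, stood far above the next, 0.60 in F578, and the difference of means was 3.08 with M278 and 2.37 without it. With no minimum its adjusted p was 0.0418, over all 32774 genes. The 4 eosinophil markers were under the minimum too, with sums of 0.543 to 11 CPM in the anomalies, M278 highest, and of 0.716 to 1.75 CPM in the controls, where Epx was at 0 in all 4 libraries. Their part in the Ccr3 values was not tested.

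Ccr7, the receptor that guides T cells and dendritic cells to lymph nodes, lay at -0.01, 3.11 and 3.55 log2 CPM in the anomalies, against -0.88, 0.05, -0.63 and 1.17 in the controls. Only 18f lay inside the control range, and the other 6 anomaly animals were above it. Ccr7 rose by 2.73 ± 0.69 (6.61-fold, adjusted p = 0.0107). Of 5 tested dendritic cell markers 3 rose, Flt3 by 2.83, Itgax by 2.13 and Clec9a by 1.18. Zbtb46 (0.19 ± 0.27, adjusted p = 0.6) and Cd209a (-0.57 ± 0.71, adjusted p = 0.544) did not pass. All 6 listed markers summed to 66.1 to 341 CPM in the anomalies and to 43.9 to 81.6 CPM in the controls. Of 2 tested lymph node stroma markers Madcam1, a vessel adhesion molecule, rose by 4.75 (adjusted p = 0.0110). The other had a negative difference and did not pass. The 5 stroma markers measured summed to 107 to 148 CPM in the anomalies. In the controls they summed to 92.3 to 126 CPM, and Glycam1 was at 0 there. Their part in the Ccr7 values was not tested. The Ccr7 ligand Ccl19, under the minimum, lay at -3.32, 0.39 and 2.31 log2 CPM in the anomalies, against -1.14, -1.87, -1.62 and -2.09 in the controls, again with 6 of 7 anomalies above the controls and 18f below them. The Ccl19 values are uncertain, because the gene has near-identical copies in the mouse genome between which reads can be split. Ccl25, a ligand known from thymus and gut, lay at 1.68, 2.27 and 3.06 log2 CPM in the anomalies, against 2.34, 2.76, 2.91 and 3.43 in the controls (-0.53 ± 0.28, adjusted p = 0.153). Ccr6, a receptor of B cells and some T cells, was under the minimum, at -3.85, 0.83 and 2.23 log2 CPM in the anomalies, against -3.37, -3.04, -2.27 and -2.86 in the controls. Its 6 anomaly values other than that of 18f lay above every control, and with no minimum its adjusted p was 0.0456.

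**Figure D2:**
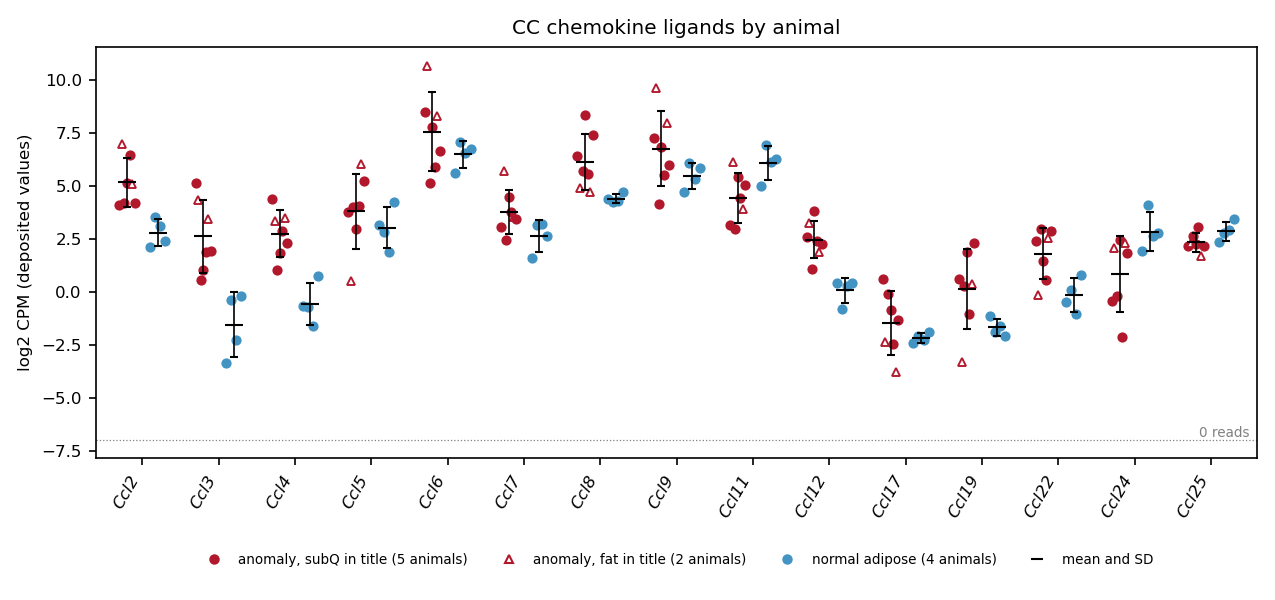
Log2 CPM of 15 CC ligands is plotted per animal, with anomalies in red (filled for subQ titles, open triangles for fat titles) left of normal adipose in blue, and the mean and SD of each group. Ccl3, Ccl4 and Ccl12 separate fully, Ccl6 and Ccl9 spread widely among the anomalies, and the control values of Ccl11 and Ccl24 lie high.

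The neutrophil-attracting CXC ligands that bind Cxcr2 were scarce in normal adipose tissue apart from Cxcl1. Cxcl1 lay at 2.43, 2.95 and 4.54 log2 CPM in the anomalies, against 1.32, 1.78, 1.24 and 0.79 in the controls. It rose by 2.0 ± 0.39 (4-fold, adjusted p = 0.00316), with no overlap over animals, and passed in all 28 alternatives. Cxcl2 lay at -0.32, 2.83 and 7.24 log2 CPM in the anomalies, against -3.37, -0.61, -1.62 and -0.61 in the controls. It rose by 4.03 ± 1.24 (16.4-fold, adjusted p = 0.0248), with no overlap over animals. The value of M580, 7.24, rests on 203 reads, and the next highest was 3.16 in M610. Without M580 the difference of means was 3.24, and the gene was under the minimum and not tested. Without F539 the log2 fold change was 3.43 and did not pass (adjusted p = 0.0655), nor did it without M602 (4.01, adjusted p = 0.0657).

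Cxcl5, made by epithelial and stromal cells, was under the minimum, at -3.87, -0.63 and 2.38 log2 CPM in the anomalies, against -3.37, -6.97, -4.39 and -4.63 in the controls, where M5 held 0 reads. It was the gene with the lowest control level per kilobase, and with no minimum its adjusted p was 0.0247. Without M5 the difference of means was 3.88, against 4.59 with it. Cxcr2, the neutrophil receptor of these ligands, was under the minimum, at -1.42, 1.87 and 4.48 log2 CPM in the anomalies, against 1.68, -1.68, -2.58 and -2.86 in the controls. M580 was the highest anomaly and F539 the highest control, and without F539 the difference of means was 3.56, against 2.55 with it.

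M580 and F539 were also the highest animals of their groups in summed neutrophil markers. The summed level of 6 neutrophil markers was 972 CPM in M580 and 23.1 to 99 CPM in the other anomalies, against 56.9 CPM in F539 and 7.07 to 11.1 CPM in the other controls. Ly6g, a defining neutrophil gene, was at 2.38 log2 CPM in M580 and at or below -2.29 in the other anomalies, against -1.46 in F539 and at or below -3.78 in the other controls. In the leg piece of M566 the sum was 346 CPM, with S100a8 at 7.52 and S100a9 at 7.19 log2 CPM, and in its arm piece 12.9 CPM, with -0.21 and 1.23. The other markers in the leg piece lay within the range of the other anomaly animals: Csf3r at 3.87, Retnlg at -1.04, Mpo at -1.25 and Ly6g at -2.79. Cxcr2 in that leg piece, at 4.67 log2 CPM, was above the 4.48 of M580. The part of neutrophil RNA in the Cxcr2 ligand values was not tested. Without M580 Cxcl1 had a log2 fold change of 1.90 (adjusted p = 0.00652), and without M580 and F539 of 1.91 (adjusted p = 0.0123).

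**Figure D3:**
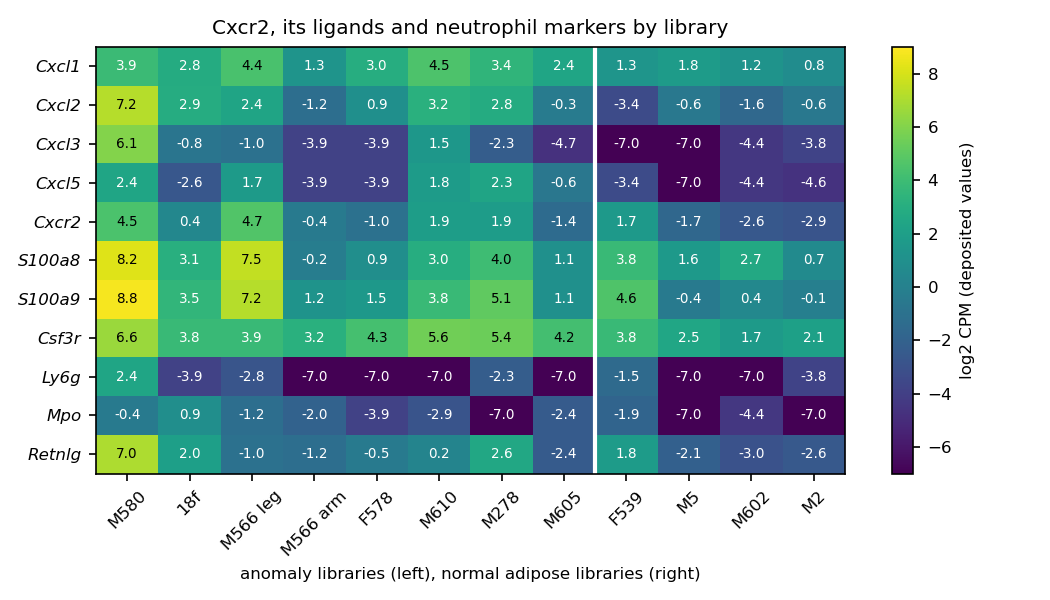
Each cell gives the log2 CPM of 1 gene in 1 library, with anomaly libraries (both pieces of M566 shown) left of the white line and normal adipose libraries right of it, for Cxcr2, its ligands and the 6 neutrophil markers. M580 is highest in Cxcl2, Cxcl3, Cxcl5 and every marker except Mpo, which is highest in 18f, and the leg piece of M566 is highest in Cxcr2.

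The ligands of Cxcr3, which gather activated T cells and are known as interferon gamma targets, did not pass. Cxcl9 lay at 4.05, 6.64 and 7.42 log2 CPM in the anomalies, against 4.71, 5.96, 5.62 and 5.86 in the controls (0.40 ± 0.60, adjusted p = 0.617). Cxcl10 lay at 1.47, 4.09 and 6.19 log2 CPM in the anomalies, against 1.37, 1.79, 2.42 and 2.37 in the controls, and 6 of 7 anomaly animals were above every control. Its log2 fold change of 1.85 ± 0.72 had an adjusted p of 0.0637, and of 0.0111 without 18f, the low animal. Leaving out any 1 animal gave Cxcl10 an adjusted p from 0.0111 to 0.133. Cxcr3 lay at 1.42, 2.16 and 3.88 log2 CPM in the anomalies, against 2.07, 1.57, 0.40 and 2.71 in the controls (0.79 ± 0.56, adjusted p = 0.286). M278 and M605 were highest in Cxcr3.

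Cxcl13, the B cell attractant of lymphoid follicles, lay at 1.94, 4.20 and 7.42 log2 CPM in the anomalies, against 2.10, -0.79, 0.68 and 2.40 in the controls, with 5 of 7 anomaly animals above the highest control. It rose by 3.10 ± 1.05 (8.59-fold, adjusted p = 0.0374), and the call was lost in 10 of 28 alternatives. These included limma-voom (2.76, adjusted p = 0.157) and leaving out M580 (2.81, adjusted p = 0.0665), M566 (3.10, 0.0514), F578 (3.01, 0.0612), M5 (2.47, 0.117) or M602 (2.96, 0.0999). Its receptor Cxcr5 lay at -1.41, 2.22 and 3.05 log2 CPM in the anomalies, against 0.52, 0.33, -0.12 and 0.81 in the controls (1.03 ± 0.80, adjusted p = 0.324). The 5 B cell markers summed to 7.4 to 155 CPM in the anomalies, lowest in 18f and highest in M580, and to 9.55 to 17 CPM in the controls. Their part in the Cxcl13 and Cxcr5 values was not tested.

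Cxcl16, a ligand that is also made as a membrane-bound protein, lay at 4.80, 6.12 and 6.98 log2 CPM in the anomalies, against 4.22, 3.62, 3.16 and 4.08 in the controls. It rose by 2.38 ± 0.36 (5.2-fold), with the smallest adjusted p of the 37 genes, 0.00135. The groups did not overlap, also with both pieces of M566 counted (leg 6.61, arm 5.45). Its receptor Cxcr6, found on T cells and NK cells, ranged more widely, at -1.98, 3.68 and 5.64 log2 CPM in the anomalies, against 1.76, 1.07, -0.05 and 2.33 in the controls. Cxcr6 did not pass (1.43 ± 1.19, adjusted p = 0.361), and without 18f, its lowest animal, it did (2.21, adjusted p = 0.0400). With any 1 animal left out its adjusted p ran from 0.0400 to 0.614. The 6 T cell markers summed to 29.8 to 120 CPM in the anomalies and to 6.53 to 30.9 CPM in the controls, and 4 of them rose (Cd3d, Cd3e, Cd3g and Cd4). Their part in the values of T cell receptors such as Ccr7 and Cxcr6 was not tested.

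Cx3cr1, the receptor of monocytes and resident macrophages, lay at 2.49, 5.43 and 5.97 log2 CPM in the anomalies, against 3.14, 0.99, 1.54 and 1.56 in the controls. Only 18f was below the highest control, F539. Cx3cr1 rose by 3.10 ± 0.66 (8.6-fold, adjusted p = 0.00501). Its membrane-bound ligand Cx3cl1, an endothelial adhesion molecule, lay at 3.47, 5.63 and 6.71 log2 CPM in the anomalies, against 6.36, 3.73, 3.13 and 2.76 in the controls. Cx3cl1 did not pass with all 4 controls (1.47 ± 0.79, adjusted p = 0.158), and without F539, its highest control, it did (2.26, adjusted p = 0.0260). With any 1 animal left out its adjusted p ran from 0.0260 to 0.379.

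Cxcl12, the homeostatic ligand of stromal and endothelial cells, did not differ beyond the spread of the animals. It lay at 7.01, 8.04 and 9.33 log2 CPM in the anomalies, against 8.47, 8.55, 7.48 and 7.81 in the controls (0.07 ± 0.39, adjusted p = 0.902). Its scavenger Ackr3 lay at 4.36, 6.12 and 6.74 log2 CPM in the anomalies, against 5.18, 6.51, 5.88 and 4.94 in the controls (0.10 ± 0.50, adjusted p = 0.894). The sign of both turned in some alternatives. Cxcr4, the signalling receptor of Cxcl12 and not one of the 37, rose by 2.62 ± 0.56 (adjusted p = 0.00529). Cxcl14, a ligand of epithelia and fat, lay at 2.78, 5.86 and 7.55 log2 CPM in the anomalies, against 8.15, 5.88, 6.02 and 5.92 in the controls (-0.73 ± 0.86, adjusted p = 0.522), with F539 above every other animal. Ackr2, a scavenger of inflammatory CC ligands known from lymphatic endothelium, lay at -0.75, 2.47 and 3.96 log2 CPM in the anomalies, against 2.29, 4.52, 3.39 and 3.25 in the controls (-1.07 ± 0.79, adjusted p = 0.299).

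**Figure D4:**
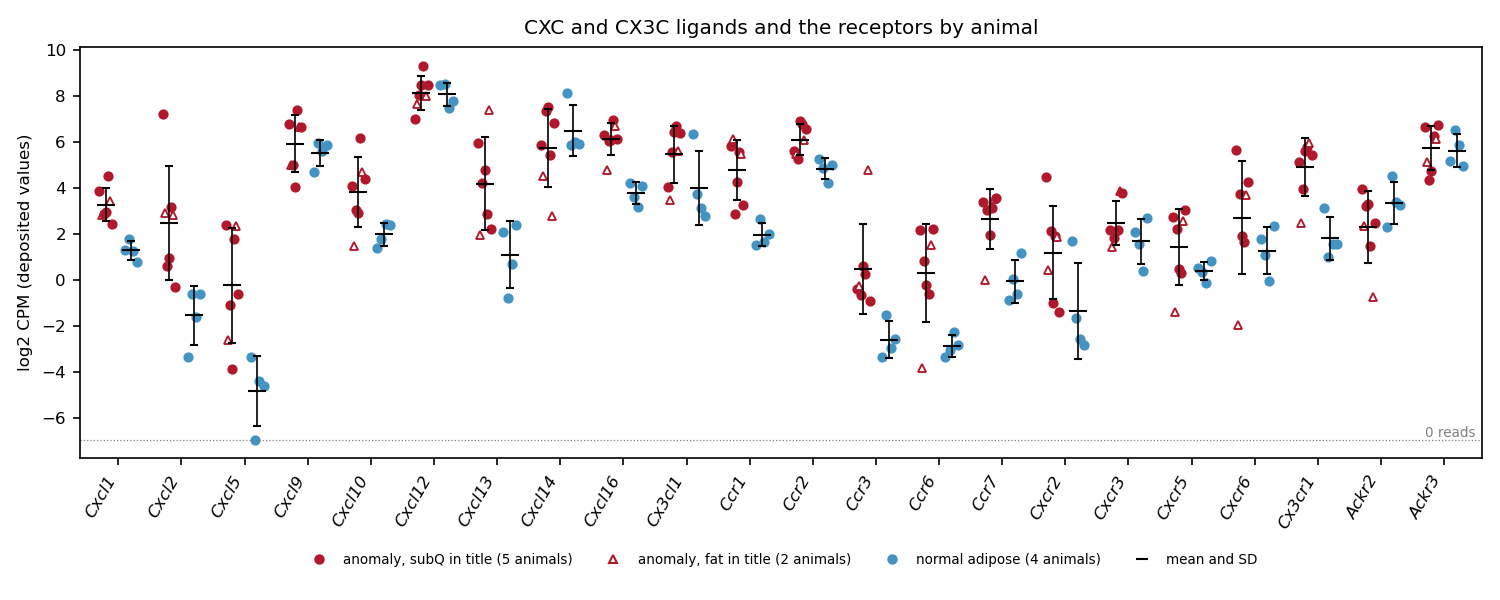
Log2 CPM of the CXC and CX3C ligands, the receptors and the atypical receptors is plotted per animal, with anomalies in red left of normal adipose in blue, and the mean and SD of each group. Cxcl16 and Ccr1 separate fully over animals, Cxcl12 and Ackr3 overlap, and M278 stands apart in Ccr3.

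Set side by side, receptors and ligands did not share their result. Ccr1 passed, and of its ligands Ccl3 did while Ccl5, Ccl6, Ccl7 and Ccl9 did not. Ccr2 passed, and of its ligands Ccl2 and Ccl12 did while Ccl7 did not. Only the ligand passed for Cxcr5 with Cxcl13 and for Cxcr6 with Cxcl16, and only the receptor for Cx3cr1 with Cx3cl1. These are results of separate tests, and the difference between a receptor and its ligand was not tested. Neither side passed for Cxcr3 with Cxcl9 and Cxcl10 or for Ackr3 with Cxcl12.

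**Figure D5:**
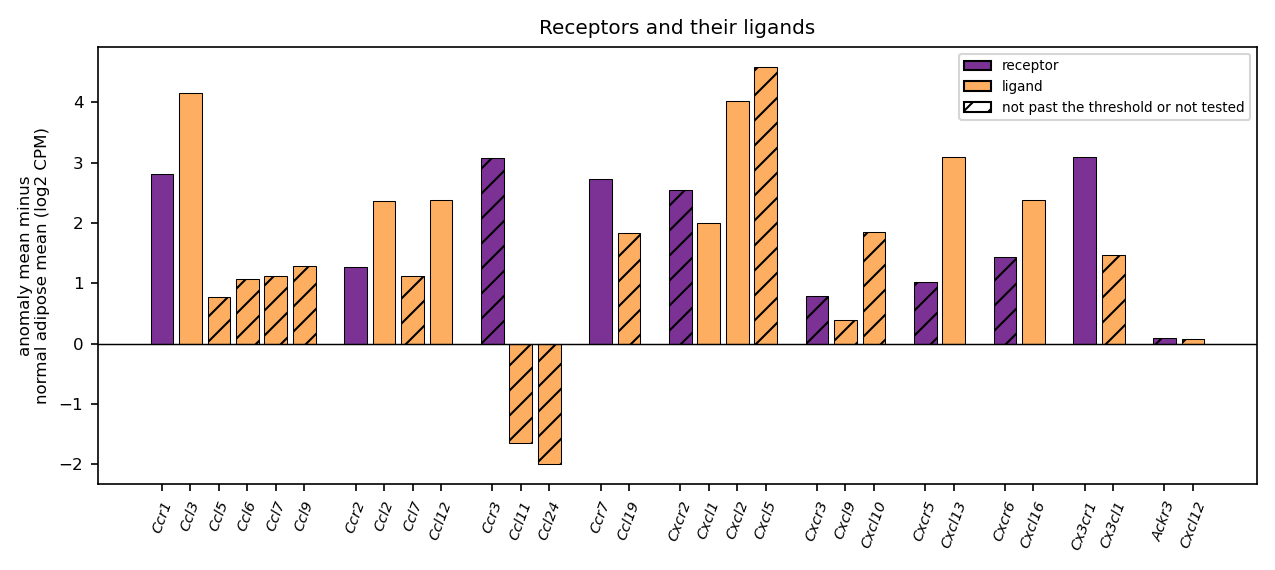
Bars give the anomaly mean minus the normal adipose mean (log2 CPM) of each receptor in purple and its ligands in orange, hatched where the gene was not past the threshold or not tested. Ccr3 is 3.08 while its ligands Ccl11 and Ccl24 are -1.64 and -2.0.

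Levels between genes were compared per kilobase of exon, as medians over the anomaly animals and over the controls. Ccl6 was the most abundant of the 37 in the anomalies, with 123 CPM per kb and 55.8 in the controls. Ccl8 was next, with 101 CPM per kb in the anomalies and 39.1 in the controls, and Ccl9, Cxcl9, Cxcl12 and Cxcl14 followed with 31.7 to 37.3 in the anomalies. The ranges of these 6 over the anomaly animals overlapped, so their order is not firm. Ccl2 had 29.3 CPM per kb in the anomalies and 5.99 in the controls, and Cxcl16 had 23.1 and 4.83. At the low end, Cxcl5 and Ccr3 had 0.343 and 0.253 CPM per kb in the anomalies and 0.0194 and 0.043 in the controls.

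Many of the genes lie in clusters, given here on GRCm38 with the GENCODE annotation. On chromosome 11, Ccl2 (82035571 to 82037453), Ccl7, Ccl11, Ccl12 and Ccl8 (82115185 to 82116799) lie next to each other. Of these 5 neighbours Ccl2, Ccl12 and Ccl8 rose, Ccl7 did not pass, and Ccl11 had a negative difference. Further along, Ccl5 (83525778 to 83530518), Ccl9, Ccl6, Ccl3 and Ccl4 (83662584 to 83664683) form a group in which Ccl3 and Ccl4 rose and the other 3 did not pass. On chromosome 9, Cxcr6, Ccr1 (123962124 to 123968692), Ccr3 and Ccr2 (124101950 to 124113557) are neighbours, of which Ccr1 and Ccr2 rose. Of the 37 genes 9 overlap another annotated gene, and the kit kept no strand, so reads of the pair cannot be told apart where exons overlap. Among those that rose, these are Ccl2 with Gm17268, Cxcl16 with Zmynd15, and Cx3cr1 with Wdr48, Gorasp1, Ttc21a and others.

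The leg and arm pieces of M566 show how far 2 lesions of 1 mouse can differ. Their median absolute difference over the 37 genes was 1.11 log2 CPM, against a median SD over the 7 anomaly animals of 1.32. In 16 genes the pieces lay within 1 log2 CPM, and in 8 they were more than 2 apart. The leg was higher by 5.54 in Cxcl5, 5.10 in Cxcr2, 3.56 in Cxcl2, 3.45 in Cxcr6 and 3.13 in Cxcl1, and lower in Ackr3 (-2.27) and Ccl24 (-2.58). The largest 3 were a pair of neutrophil ligands and their receptor. Of the neutrophil markers S100a8 and S100a9 differed with them, with the leg higher by 7.73 and 5.96. In Retnlg, Csf3r and Mpo the leg was higher by 0.16 to 0.73. Ly6g was at -2.79 in the leg and at -6.97, which is 0 reads, in the arm, so its difference of 4.19 depends on the floor. The part of the neutrophil markers was not tested. With both pieces counted, 6 of the 11 separated genes stayed above every control in all 8 libraries (Ccl2, Ccl3, Ccl8, Ccl12, Cxcl16 and Ccr3). All genes tested gave 6.88%, a share that leaves out Ccr3, which was not tested. The Ccr3 value in M580, -0.41, was 1 read.

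The 5 subQ-titled anomaly animals were set against the 2 fat-titled ones in a second limma fit with 3 groups (subQ-titled, fat-titled and control). Of 31 genes 0 passed in this fit, with a smallest adjusted p of 0.205, where 0.0386% of all genes tested passed. With limma-voom 0 of the 31 passed too. At an unadjusted p under 0.05 there were 5 of the 31 genes, a share near the 14.8% of all genes tested, so this count does not set them apart. Ccl8 (1.86 ± 0.63), Cxcl14 (2.94 ± 0.78) and Ackr2 (2.10 ± 0.88) had positive differences, subQ minus fat with its SE, and Ccl6 (-2.67 ± 0.90) and Ccl9 (-2.84 ± 0.77) negative ones. Mean Cxcl14 was 6.60 log2 CPM in subQ-titled and 3.66 in fat-titled anomalies, and mean Ccl9 was 5.94 and 8.78. The 4 controls are all fat-titled, so in subQ-titled anomalies the title and the anomaly cannot be told apart.

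Genes of the pathway outside the 37 were counted over lists. Of 13 other ligands 2 were tested, and Ppbp, a platelet chemokine, rose (1.74 ± 0.57, adjusted p = 0.0324), while Pf4, the other platelet chemokine, did not pass (0.59 ± 0.60, adjusted p = 0.457). Of 13 other receptors 7 were tested. In addition to Cxcr4, Gpr35 rose (2.98 ± 0.43, adjusted p = 0.00115), and Cmklr1, the receptor of chemerin, fell by 1.71 (SE 0.49, adjusted p = 0.0189).

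Of 38 genes that act downstream of chemokine receptors 20 rose (52.6%) and 1 fell (2.63%), where 15.3% of all genes tested rose and 23.2% fell. Their median log2 fold change was 0.94. Plcb2, the phospholipase of G protein signalling in blood cells, rose by 2.41 ± 0.41 (adjusted p = 0.00191), and Vav1, an exchange factor for Rac, by 2.29 ± 0.39 (adjusted p = 0.00192). Arrb2, an arrestin that takes up receptors, rose by 1.30 ± 0.26 and Elmo1, of the Dock2 complex, by 1.51 ± 0.31. The gene that fell was Gnai1, an inhibitory G protein subunit, at 3.16, 4.54 and 6.28 log2 CPM in the anomalies, against 6.88, 8.32, 8.97 and 8.30 in the controls (-3.40 ± 0.54, adjusted p = 0.00150). Many of the genes that rose are expressed by leukocytes in general, and Coro1a of this list (1.75 ± 0.31) is also among the 4 leukocyte markers, of which Ptprc rose by 1.81 ± 0.36.

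Of 8 tested proteases known to cut chemokines 3 rose: Adam17 (0.98 ± 0.16) and Adam10 (0.91 ± 0.24), which release Cx3cl1 and Cxcl16 from the cell surface, and Mmp14 (2.11 ± 0.50). Of 14 NF-κB subunits, inhibitors and feedback genes 10 rose and 1 fell (Ikbkg, -0.64 ± 0.16), with a median of 0.80. Rel rose by 1.38 ± 0.22, Nfkbie, an inhibitor induced by NF-κB, by 1.92 ± 0.35, and Nfkb2 by 0.93 ± 0.22. Of 10 tested genes of the interferon gamma axis 5 rose, among them Socs3 (2.18 ± 0.54), Irf8 (1.52 ± 0.38) and Ifngr2 (1.09 ± 0.28). Irf1 (0.31 ± 0.27, adjusted p = 0.371), a transcription factor of this axis, did not pass. The medians stand beside -0.10 for all genes tested, and the counts of these lists beside 15.3% higher and 23.2% lower.

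Leaving out 1 animal at a time, 8 of the 14 calls held each time: Ccl2, Ccl4, Ccl12, Cxcl1, Cxcl16, Ccr1, Ccr7 and Cx3cr1. Ccl2, Cxcl1 and Ccr1 held in all 28 alternatives, and the other 5 in all except the fat-titled anomalies alone. There Cxcl16 and Cx3cr1 did not pass, and Ccl4, Ccl12 and Ccr7 were under the minimum and not tested. Without M580 there were 9 calls among 27 genes tested, without M602 9 among 31, and without M580 and F539 together 11 among 29. With library totals in place of the deposited scaling the median of all genes shifted by 0.43, and 74.4% of all calls were higher, against 39.8% with the deposited values. Of the 31 genes 16 were then higher and 0 lower, beside 4573 higher and 1575 lower of all 12955 genes tested. The background of higher calls was thus larger than the 1985 with the deposited values.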

How the data were processed

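RNA was measured in 8 anomaly and 4 normal adipose libraries made with an unstranded poly-A kit, per the labels' protocols. The submitters' processing notes name STAR, limma, mm10 and GRCm38, and the file headers name STAR gene counts. Their versions, the normalization and the prior are not given in the sources used here. The authors deposited normalised log2 CPM for 32774 genes. After subtraction of the prior, 100% of values were whole multiples of 1 step per library (tolerance 0.1), read as recovered reads. Without molecular identifiers, depth covers counting error only. In M580 3 reads were worth 2.23 CPM, and in the other libraries 0.0914 to 0.267 CPM.

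Log2 CPM was compared with limma 3.58.1 (R 4.3.3, statmod 1.5.0; trend, robust) between 7 anomaly animals and 4 controls, and in a second fit with the anomalies split by title. The pieces of M566 were averaged. Genes with a mean under 1 log2 CPM (11 animals) were not tested. P-values were Benjamini-Hochberg adjusted over all 12955 genes tested, with a threshold of 0.05. The limma step alone was tested beforehand on simulated counts, whose spread was set at a fixed value and not taken from these animals. Alternatives were other priors (0.5 and 1), scalings, minima, limma-voom on recovered reads, other treatments of M566, titles, and leaving out animals. Nothing states how the animals were bred or which libraries were prepared together, and no batch is labelled. M605 has a control name in the first line of the header but is an anomaly in the second and in the labels, and was used as one. The design text counts 8 anomaly animals and the titles name 7.

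Symbols were matched by Ensembl identifier, through which Ccl11 and Ccl19 were found. Promoters were those of the RefSeq table (GRCm38.p6, 250 bases before to 50 after the start), and matches were sought in the 250 bases before it. The members and lists were chosen with earlier results of these data known. All 37 members could be named. Those past the threshold or with high levels per length were to be given in every group, and from other lists at most 8 genes past the threshold, by the size of the moderated statistic. Irf1 and Pf4, the Cxcl3, Cxcl15 and Ccl21a values, and the promoters of Cxcl9 and Cxcl10 were chosen after values were seen.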

Additional observations from a re-analysis of the deposited data

Results flagged for a closer look

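For each of the 37 genes the highest and lowest animal of the 7 anomalies and of the 4 controls were compared with the nearest other animal, and the gap was divided by the range of the group. Among the 74 groups of values 3 had a gap above Dixon's 95% critical value, which chance passes in about 5% of groups. Ccr3 in anomaly animal M278 was 4.79 log2 CPM, with 0.60 in the next animal, a gap of 0.733 of the range (critical value 0.568). Ccl12 in control M5 was -0.79 log2 CPM, with 0.27 in the nearest control, a gap of 0.87 of the range (critical value 0.829). Cxcl14 in control F539 was 8.15 log2 CPM, with 6.02 in the nearest control, a gap of 0.938 of the range (critical value 0.829).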

How the results depend on the processing

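The comparison of anomalies with normal adipose tissue gave 14 genes higher and 0 lower of the 37, and the counts moved as follows. Leaving out 1 animal gave 9 to 14 higher, with 9 without M580 and 9 without M602, and 0 to 1 lower. The 2 fat-titled anomalies alone gave 5 higher among 24 genes tested. One gene was lower, Ccl11, with log2(CPM + 1), with median-ratio scaling, with the pieces of M566 kept separate (1 each) and without M580 and F539, an alternative chosen after seeing the data (1). There were 2 lower with the subQ-titled anomalies and 2 without the animals named f or F. Over all genes, 1985 higher and 3001 lower became 4573 and 1575 with library totals, 822 and 696 with the fat-titled anomalies, and 1205 to 2295 and 1823 to 3522 without 1 animal, lowest without M602 in both. In the pathway lists, 42 higher and 3 lower became 19 and 0 with the fat-titled anomalies, 27 to 43 (27 without M602) and 2 to 5 (5 without F539) without 1 animal, and 5 lower without the animals named f or F. The sign turned for genes that had not passed: Cxcl9 at -0.01 without M580 and F539; Cxcl12 at -0.02 with limma-voom, -0.04 with the leg piece alone, -0.13 without M610, -0.13 without M602, -0.02 without M2 and -0.23 in the fat-titled anomalies; Cxcl14 at 0.11 in the subQ-titled ones; Cxcr6 at -0.43 in the fat-titled ones; and Ackr3 at -0.07 with separate pieces, -0.07 with the leg alone, -0.06 without M580, -0.07 without M605, -0.05 without F539, -0.13 without M2 and -0.21 without M580 and F539. Without 1 animal Cxcl12 ran from -0.13 to 0.26 and Ackr3 from -0.13 to 0.39. The fat-titled comparison has 2 anomaly animals and the leave-one-out fits fewer animals and other genes above the minimum; the cause of the other moves was not tested. No paired analysis was possible because the titles name different animals in the groups and share no replicate numbers. Depth limits the genes under 1 log2 CPM, above all in M580.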
